A study of Mus musculus with 16 samples.

Results

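The genes described here are 10 regulators of DNA methylation and Polycomb repression, chosen by name from the 46078 genes of the count table: the DNA methyltransferases Dnmt1, Dnmt3a and Dnmt3b, the methylcytosine dioxygenases Tet1, Tet2 and Tet3, and the Polycomb genes Ezh1, Ezh2, Bmi1 and Asxl1. All 10 were in the table, each on 1 line, and all 10 passed the filter on low counts that left 13661 genes. Their RNA was measured by SMART-Seq in 16 samples of mouse hematopoietic stem cells (HSCs), LSK SLAM cells of the bone marrow sorted on MAC-1, an integrin with the Itgam product as its alpha subunit. There were 3 samples of steady-state (SS) MAC-1- HSCs, 3 of SS MAC-1low, 3 of 4 week MAC-1-, 4 of 4 week MAC-1low and 3 of 4 week MAC-1+ HSCs. SS mice were untreated, and 4 week HSCs came from recipients irradiated with 900 cGy and given 8000 LSK cells 4 weeks earlier. All samples were labelled wild type (WT) on the B6.SJL strain. In the paper's serial transplantations, with the same cell number and irradiation, that strain was the donor. The recipients were of another strain, which also gave whole bone marrow as support. Donor HSCs were then sorted from the recipients. The paper does not restate this scheme for the sequenced 4 week samples. The ages of the mice are not given in the labels, and a MAC-1+ population was taken from the 4 week mice only. The labels do not say whether replicates came from separate mice, so p-values measure the spread between these samples, which may be technical in part.

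Cytosine methylation is copied at each cell division by DNMT1, which acts on the hemimethylated sites left behind the replication fork, and is laid down anew by DNMT3A and DNMT3B. The TET enzymes oxidize methylcytosine as a step towards its removal. Polycomb repressive complex 2 (PRC2) methylates histone H3 at lysine 27 through its alternative catalytic subunits EZH1 and EZH2, and Polycomb repressive complex 1 (PRC1), of which BMI1 is a subunit, ubiquitinates histone H2A. ASXL1 is a cofactor of BAP1, which removes that ubiquitin. DNMT3A, TET2 and ASXL1 are known as frequent targets of mutation in clonal hematopoiesis, and BMI1 is known to be needed for the self-renewal of HSCs.

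Total counts ran from 13781278 to 28580658 per sample and the number of genes detected from 14533 to 17576. Replicate libraries differed by far more than counting noise, as the chi-square of the 18 pairs within populations was 126 to 306 times its degrees of freedom. The library of SS MAC-1- replicate 3 had the most genes detected and the lowest median correlation with its own population, 0.702, so values without it are given where a result rested on it. Itgam itself was the check of the sort: its mean level was 0.122 CPM (counts scaled to a common library total) in SS MAC-1-, 1.08 in SS MAC-1low, 0.594 in 4 week MAC-1-, 1.48 in 4 week MAC-1low and 14.04 in 4 week MAC-1+ HSCs. The 4 week MAC-1low (0.112 to 4.36 CPM) and MAC-1- samples (0 to 1.78) overlapped, and MAC-1+ versus MAC-1- had an edgeR adjusted p of 0.400. With Itgb2, the gene of the other MAC-1 subunit, added, 4 week MAC-1- (20.6 to 31.4 CPM) and MAC-1+ samples (16.9 to 45.2) overlapped, so this check was partial. A list of 14 genes of HSCs and early progenitors was also summed. It held Cd34, Flt3 and Cd48, which do not mark HSCs alone, and the sort excluded cells with CD48. The summed CPM of the 14 was 1165 to 1260 in 4 week MAC-1- HSCs and 1931 to 4338 in the other samples.

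Promoter sequences are shown because a pair of the 10 genes, Dnmt1 and Ezh2, carried at least 1 of 2 spellings of a motif, while the others carried neither. The windows are from RefSeq on GRCm38.p6, each 300 bases long and covering the annotated start of a transcript. All 10 genes had at least 1 window. They were searched on both strands for 2 spellings of the E2F site, TTTGGCGC and TTTCGCGC, which do not overlap one another in these windows. Of 32851 windows of all genes, 267 (0.813%) held such a match. Among the 10 genes, 1 of the Dnmt1 windows held 2 matches and the Ezh2 window held 1, while no such letters stood in the windows of the other 8 genes. E2F factors are known as regulators of S phase genes, and whether the matches are bound was not measured. The Dnmt1 window lies at chr9:20952574-20952873 on the minus strand, inside the annotated gene, and the Ezh2 window at chr6:47594981-47595280 on the minus strand. The Ezh1 window, at chr11:101226414-101226713 on the minus strand, is given as the paralogue without a match. A window of Uhrf1, which encodes the partner that brings DNMT1 to hemimethylated DNA, is given because it also held 1. It lies at chr17:56304063-56304362 on the plus strand. The other Uhrf1 window, at chr17:56303087-56303386, held no match. Neither did the window of Hells, a chromatin remodeler needed for DNA methylation, although it holds tttcccgc, a related spelling that was not searched for. A window without a match may thus still hold another form of the site. The 4 windows shown are written 5′ to 3′ with the E2F matches in capitals, on either strand.
Dnmt1: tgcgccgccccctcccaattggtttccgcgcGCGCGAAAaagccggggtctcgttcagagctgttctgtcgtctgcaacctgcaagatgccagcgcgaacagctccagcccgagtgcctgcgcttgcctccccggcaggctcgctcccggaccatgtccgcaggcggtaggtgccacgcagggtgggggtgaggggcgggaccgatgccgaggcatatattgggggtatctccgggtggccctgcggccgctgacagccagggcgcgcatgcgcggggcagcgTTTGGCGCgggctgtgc
Ezh2: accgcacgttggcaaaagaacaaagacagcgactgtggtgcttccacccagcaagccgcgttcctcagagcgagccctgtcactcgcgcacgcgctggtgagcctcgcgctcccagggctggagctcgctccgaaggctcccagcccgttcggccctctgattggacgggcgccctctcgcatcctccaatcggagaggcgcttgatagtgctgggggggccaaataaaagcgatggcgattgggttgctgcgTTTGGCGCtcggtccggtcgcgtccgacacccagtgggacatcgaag
Ezh1: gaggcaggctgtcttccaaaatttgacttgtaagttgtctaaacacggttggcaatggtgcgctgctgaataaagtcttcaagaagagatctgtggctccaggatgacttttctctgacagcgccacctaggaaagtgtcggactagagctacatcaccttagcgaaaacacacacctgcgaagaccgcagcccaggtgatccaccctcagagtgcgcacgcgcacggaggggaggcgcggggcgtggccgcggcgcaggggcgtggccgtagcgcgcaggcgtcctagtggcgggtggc
Uhrf1: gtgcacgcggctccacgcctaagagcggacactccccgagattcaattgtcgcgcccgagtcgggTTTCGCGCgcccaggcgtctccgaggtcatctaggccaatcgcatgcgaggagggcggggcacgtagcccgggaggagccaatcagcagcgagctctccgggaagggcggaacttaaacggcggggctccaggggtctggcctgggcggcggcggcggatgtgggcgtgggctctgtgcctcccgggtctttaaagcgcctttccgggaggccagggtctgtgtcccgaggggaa
The Dnmt1, Ezh2 and Uhrf1 windows shown held 33, 31 and 33 CpG dinucleotides and the Ezh1 window 23, against a median of 7 over all windows. Windows of the 10 genes without a match held from 2 (another Dnmt1 window) to 57 (Tet2).

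All 10 genes were detected in all 16 samples, with the smallest number of reads, 9, for Ezh1 in SS MAC-1- replicate 3. To set the genes side by side, levels were divided by the length of the merged exons. Bmi1 (chr2:18677018-18686629, GRCm38, GENCODE M21, as for the positions that follow) was the highest at 62.8 ± 27.1 CPM per kb (SD, n = 16). Ezh2 (chr6:47530139-47595341) followed at 15.3 ± 8.26, Dnmt1 (chr9:20907209-20959888) at 14.7 ± 5.79 and Dnmt3b (chr2:153649450-153687730) at 10.4 ± 5.31 CPM per kb. The other 6 lay below 5 CPM per kb. They were Asxl1 (chr2:153345829-153404007) at 4.11 ± 2.37, Tet1 (chr10:62804570-62908996) at 3.05 ± 1.25, Tet3 (chr6:83362373-83459084) at 2.95 ± 1.65, Dnmt3a (chr12:3806007-3914443) at 2.36 ± 1.03, Tet2 (chr3:133463679-133545139) at 2.27 ± 1.70 and Ezh1 (chr11:101191115-101226463) at 1.56 ± 1.51 CPM per kb.

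Within the families, 3 pairs of genes kept their order of levels per length in every sample. Ezh2 was above Ezh1 in 16 of 16 samples, by a median ratio of 21.3 (range 2.31 to 101). Dnmt3b was above Dnmt3a in 16 of 16 samples, with a median ratio of 4.15 (1.13 to 14.7), and Dnmt1 was above Dnmt3a in 16 of 16, with a median of 6.14 (2.47 to 20.3). Dnmt1 and Dnmt3b changed order between samples, Dnmt1 being above Dnmt3b in 10 of 16, with a median ratio of 1.23 (0.752 to 6.80). Among the TET genes the order was mixed: Tet1 exceeded Tet2 in 12 of 16 samples and Tet3 in 9 of 16, and Tet3 exceeded Tet2 in 13 of 16. These ratios rest on the exons of all annotated transcripts, and a transcript that uses only some of them would be understated.

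None of the 10 genes passed the test at an adjusted p below 0.1 in any comparison. With edgeR's quasi-likelihood test, 0 of 10 passed in 4 week MAC-1+ versus 4 week MAC-1- HSCs, where 3.25% of all genes tested did, and 0 in 4 week MAC-1low versus 4 week MAC-1- (0.278% of all genes). None passed in 4 week MAC-1+ versus 4 week MAC-1low (0% of all genes), SS MAC-1low versus SS MAC-1- (0.0146%), 4 week MAC-1- versus SS MAC-1- (0.432%), 4 week MAC-1low versus SS MAC-1low (0.0439%) or 4 week MAC-1+ versus SS MAC-1- (2.36%). The same held for the joint test over the 5 populations (2.22% of all genes) and for the interaction, that is, whether the difference of MAC-1low from MAC-1- HSCs depended on transplantation (0.0586%). At an unadjusted p below 0.05, edgeR counted 9 of 80 pairs of a gene and a comparison, the joint test apart, in 5 of the 10 genes, while 6.85% to 14.01% of all genes were below it in these comparisons. Limma-voom also called 0 of the 10 in each of the 9 tests. DESeq2 called 1 gene in 3 comparisons: Asxl1 in SS MAC-1low versus SS MAC-1- (6.86% of all genes by DESeq2), Dnmt1 in 4 week MAC-1- versus SS MAC-1- (7.89%) and Asxl1 in 4 week MAC-1+ versus SS MAC-1- (12.5%). The comparisons share control samples, so the values of a gene in several of them are not independent.

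The samples of 2 populations did not overlap for 2 of the 10 genes in 4 week MAC-1+ versus 4 week MAC-1- HSCs, namely Dnmt3b, lower, and Tet2, higher. The share over all genes was 21.7%. It was 3 of 10 in 4 week MAC-1- versus SS MAC-1- (Dnmt1 and Ezh2 higher, Tet1 lower), beside 16.6% of all genes, and 2 of 10 in SS MAC-1low versus SS MAC-1- (Dnmt1 and Asxl1 higher), beside 11.3%. Asxl1 was the single gene without overlap in 4 week MAC-1+ versus SS MAC-1- (17% of all genes). No gene of the 10 was free of overlap in 4 week MAC-1low versus 4 week MAC-1- (10.8% of all genes), 4 week MAC-1+ versus 4 week MAC-1low (8.23%) or 4 week MAC-1low versus SS MAC-1low (10.4%). When the 5 populations were put in order of their means for each gene, 38 of the 40 pairs of neighbours overlapped. The exceptions were Tet1, whose lowest population, 4 week MAC-1-, lay wholly below SS MAC-1-, and Asxl1, whose lowest population, SS MAC-1-, lay wholly below 4 week MAC-1+. The biological coefficient of variation of the 10 genes had a median of 0.533 (0.373 for Dnmt1 to 1.20 for Ezh1), against 0.929 over all genes tested.

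**Figure D1:**
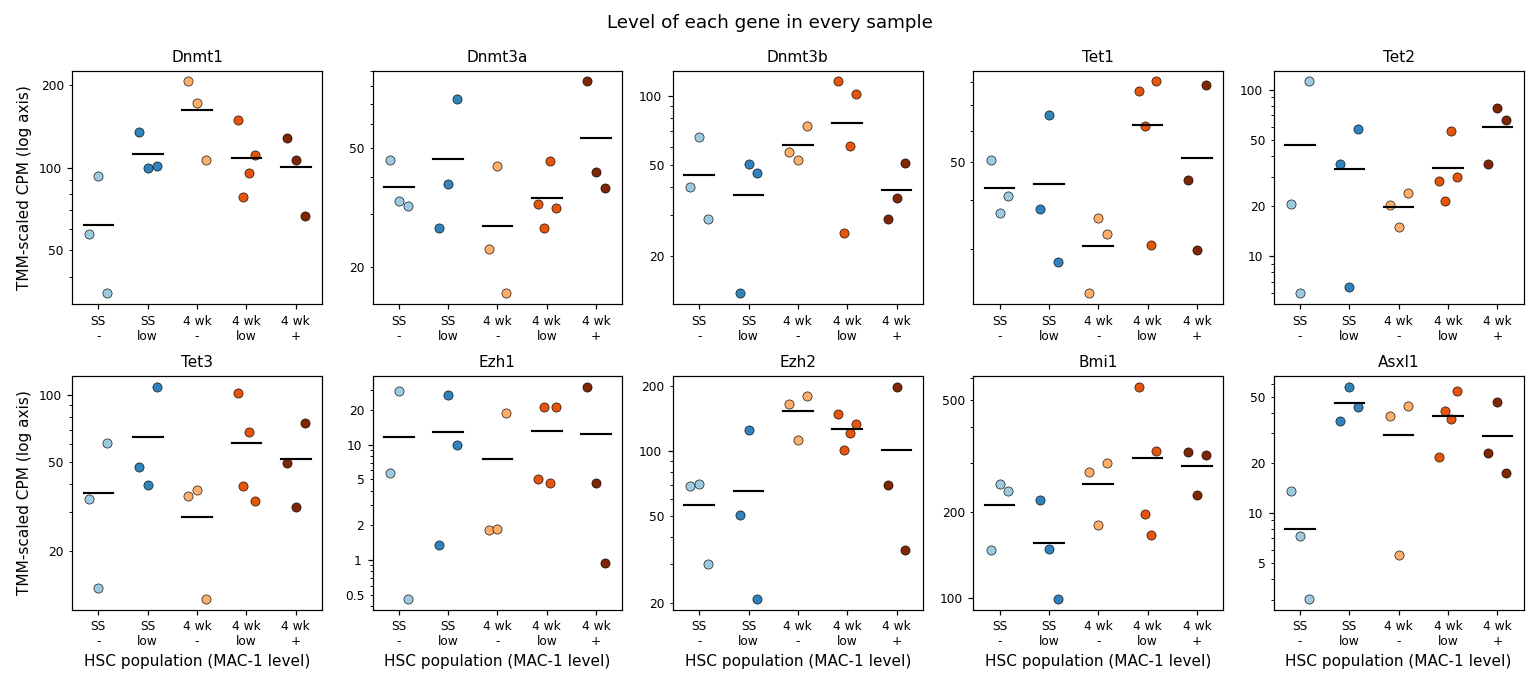
TMM-scaled CPM on a log axis for the 10 genes, 1 panel each, in the 3 SS MAC-1-, 3 SS MAC-1low, 3 4 week MAC-1-, 4 4 week MAC-1low and 3 4 week MAC-1+ samples (dots, with a line at the mean). Dnmt1 was lowest in SS MAC-1- and highest in 4 week MAC-1- HSCs, Asxl1 was lowest in SS MAC-1- HSCs, and Ezh1 spread over 0.461 to 31.6 CPM.

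Dnmt1, the maintenance methyltransferase, was lowest in SS MAC-1- HSCs, with 57.3, 93.2 and 34.9 CPM in replicates 1 to 3. It measured 134, 99.8 and 101 CPM in SS MAC-1low and 206, 172 and 107 in 4 week MAC-1- HSCs. In 4 week MAC-1low HSCs it was 149, 78.0, 95.4 and 111 CPM, and in 4 week MAC-1+ HSCs 128, 107 and 66.7. Both SS MAC-1low and 4 week MAC-1- samples were thus all above the SS MAC-1- samples, while the other 2 populations overlapped them. Between 4 week MAC-1- and SS MAC-1- HSCs the log2 fold change was 1.39 ± 0.40 (SE, 95% interval 0.54 to 2.23), with an edgeR adjusted p of 0.242 (unadjusted 0.00324). DESeq2 gave 1.36 with an adjusted p of 0.0201, and over the other alternatives and left-out libraries the adjusted p ran from 0.141 to 0.615. Without SS MAC-1- replicate 3 the log2 fold change was 1.10 and the edgeR adjusted p 0.431. In SS HSCs Dnmt1 was 0.86 ± 0.39 higher on the log2 scale in MAC-1low than in MAC-1- (adjusted p 0.532 by edgeR), and 0.57 higher without SS MAC-1- replicate 3 (0.696). In 4 week HSCs the same difference was -0.58 ± 0.36 (0.859). The interaction of these opposite differences was -1.43 ± 0.53, with an edgeR adjusted p of 0.476 (unadjusted 0.0168), so the data do not separate them at this threshold. Fewer cells of a type and less RNA per cell cannot be told apart in such bulk samples.

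Dnmt3a, a de novo methyltransferase, had its highest level, 83.1 CPM, in 4 week MAC-1+ replicate 1, and its other 4 week MAC-1+ values were 41.3 and 36.6. It was 22.8, 43.2 and 16.3 CPM in 4 week MAC-1-, whereas 4 week MAC-1low HSCs had 32.5, 26.96, 45.0 and 31.5. SS MAC-1- HSCs had 45.3, 33.3 and 31.9 CPM and SS MAC-1low HSCs 26.98, 37.8 and 72.8. The ranges of all 5 populations overlapped. In 4 week MAC-1+ versus 4 week MAC-1- HSCs the log2 fold change was 0.97 ± 0.53 (95% interval -0.15 to 2.09, edgeR adjusted p 0.454). It was 0.51 without 4 week MAC-1+ replicate 1, and leaving out 4 week MAC-1- replicate 2 gave 1.46. For Dnmt3b, the other de novo enzyme, the 4 week MAC-1low samples spanned nearly the whole range, at 116, 25.1, 60.6 and 102 CPM. Dnmt3b was 28.9, 35.9 and 50.9 CPM in 4 week MAC-1+, beside 56.9, 52.3 and 73.7 in 4 week MAC-1- HSCs, so that these did not overlap. SS MAC-1- HSCs had 40.0, 66.3 and 28.8 CPM of it and SS MAC-1low HSCs 13.7, 50.3 and 46.1. Its log2 fold change for that pair was -0.66 ± 0.58 (edgeR adjusted p 0.719).

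Of the TET genes, which encode the dioxygenases, Tet1 was 23.1, 35.9 and 32.7 CPM in 4 week MAC-1-, below all of the SS MAC-1- values of 50.6, 37.1 and 41.1. It reached 75.9, 61.7, 30.7 and 80.3 CPM in 4 week MAC-1low and 45.1, 29.8 and 78.5 in 4 week MAC-1+ HSCs, and SS MAC-1low HSCs had 37.9, 66.1 and 27.7. The 4 week MAC-1low mean was thus the highest, with 1 of its 4 samples inside the 4 week MAC-1- range. The log2 fold change of 4 week MAC-1low versus 4 week MAC-1- was 1.02 ± 0.47 (edgeR adjusted p 0.672, unadjusted 0.0451).

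Tet2 had the widest spread of the TET genes. SS MAC-1- replicates 1 to 3 gave 20.5, 5.97 and 112 CPM, which hold the lowest and the highest value of all 16 samples, so the SS MAC-1- mean says little. Tet2 was 36.0, 6.49 and 57.7 CPM in SS MAC-1low, 28.3, 21.4, 56.3 and 29.8 in 4 week MAC-1low, and 20.1, 14.9 and 24.0 in 4 week MAC-1- HSCs. In 4 week MAC-1+ HSCs it was 35.7, 77.1 and 65.3 CPM, all above 4 week MAC-1-. That pair differed by a log2 fold change of 1.59 ± 0.89 (95% interval -0.31 to 3.50, edgeR adjusted p 0.473), and by 0.94 with the number of genes detected as a covariate (0.729). Tet3 was 34.3, 13.8 and 60.7 CPM in SS MAC-1- HSCs, 47.5, 39.4 and 109 in SS MAC-1low, and 35.1, 37.6 and 12.3 in 4 week MAC-1- HSCs. It was 102, 39.0, 68.5 and 33.6 CPM in 4 week MAC-1low and 49.4, 31.6 and 74.8 in 4 week MAC-1+ HSCs. The SS MAC-1low samples were all above the 4 week MAC-1- samples, a pair not tested and without a counted share over all genes, and the other populations overlapped. Its edgeR adjusted p was 0.637 in 4 week MAC-1+ versus 4 week MAC-1-, at a log2 fold change of 0.87 ± 0.65. The latter was 0.52 without 4 week MAC-1- replicate 3, 0.55 when 4 week MAC-1+ replicate 3 was left out, and 0.57 with detected genes as a covariate.

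Ezh2, the catalytic subunit of PRC2 that prevails in dividing cells, was higher in 4 week MAC-1- than in SS MAC-1- HSCs without overlap. It measured 166, 113 and 180.1 CPM in 4 week MAC-1-, beside 69.4, 70.5 and 30.0 in SS MAC-1- HSCs. In 4 week MAC-1low HSCs the values were closely grouped at 149, 102, 121 and 133 CPM, also all above SS MAC-1-, a pair that was not tested. In SS MAC-1low HSCs they were 50.6, 125.3 and 20.8, and in 4 week MAC-1+ HSCs 70.1, 199 and 35.1, so that both of these populations spanned most of the range. The log2 fold change of 4 week MAC-1- versus SS MAC-1- was 1.43 ± 0.63 (95% interval 0.09 to 2.78, edgeR adjusted p 0.451, unadjusted 0.0382), and 1.13 without SS MAC-1- replicate 3 (adjusted p 0.603). Gm26625, a lincRNA on the opposite strand that shares 174 exon bases with Ezh2, had 7.09% as many counts over all samples. Of its 2210 counts, 1164 were in 4 week MAC-1low replicate 4. It had 553 counts in SS MAC-1low replicate 3, beside 403 for Ezh2, and 301 in SS MAC-1- replicate 2, beside 1345. The strand used in counting is not stated.

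Ezh1, the paralogue prevailing in resting cells, was the least precise of the 10. It was 5.65, 29.1 and 0.461 CPM in SS MAC-1- HSCs, 1.36, 26.96 and 10.003 in SS MAC-1low, and 1.82, 1.86 and 18.8 in 4 week MAC-1- HSCs. In 4 week MAC-1low HSCs it was 5.09, 21.4, 4.68 and 21.2 CPM and in 4 week MAC-1+ HSCs 31.6, 4.65 and 0.949. Each population held both a sample above 10 and a sample below 6 CPM. The log2 fold change of 4 week MAC-1+ versus 4 week MAC-1- was 0.73 with a 95% interval of -2.55 to 4.01 and an edgeR adjusted p of 0.931, and without 4 week MAC-1+ replicate 1 it was -1.42.

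Bmi1, the PRC1 subunit, was abundant everywhere. It was 147, 252 and 238 CPM in SS MAC-1-, beside 222, 148 and 98.8 in SS MAC-1low HSCs. In 4 week HSCs it was 279, 180.5 and 299.8 CPM in MAC-1-, 557, 197, 167 and 330 in MAC-1low, and 327, 231 and 319.9 in MAC-1+ samples. The 4 week means of 253, 313 and 293 CPM lay above both SS means of 212 and 156 CPM. The 4 week MAC-1+ samples were all above the SS MAC-1low samples, and the other 4 week and SS populations overlapped. That pair was not among the comparisons tested, and its share over all genes was not counted. Against SS MAC-1low, 4 week MAC-1low HSCs had a log2 fold change of 1.00 ± 0.40 (95% interval 0.16 to 1.84, edgeR adjusted p 0.514, unadjusted 0.0233). Without 4 week MAC-1low replicate 1, the highest of all samples, it was 0.57 (adjusted p 0.805).

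Asxl1, the cofactor of the deubiquitinase BAP1, was low in SS MAC-1- HSCs, at 13.6, 7.23 and 3.02 CPM. It was 35.7, 57.3 and 43.6 CPM in SS MAC-1low, 21.5, 41.1, 36.9 and 54.2 in 4 week MAC-1low and 22.9, 46.7 and 17.4 in 4 week MAC-1+ HSCs. In 4 week MAC-1- HSCs it was 38.4, 5.57 and 44.1, with replicate 2 inside the SS MAC-1- range. Every sample of the other 4 populations but that one was above all SS MAC-1- samples. The log2 fold change of SS MAC-1low versus SS MAC-1- was 2.52 ± 0.77 (95% interval 0.88 to 4.16), with an edgeR adjusted p of 0.438 (unadjusted 0.00517). DESeq2 gave 2.53 with an adjusted p of 0.0112, and over the other alternatives and left-out libraries the adjusted p ran from 0.308 to 0.995. Without SS MAC-1- replicate 3 the log2 fold change was 2.13 (edgeR adjusted p 0.603). Against SS MAC-1- the log2 fold change was 1.89 ± 0.75 in 4 week MAC-1- (edgeR adjusted p 0.417) and 1.87 ± 0.75 in 4 week MAC-1+ HSCs (0.287, and 0.0625 by DESeq2, with 0.180 to 0.698 over the other alternatives and left-out libraries).

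A gene on the opposite strand, 2500004C02Rik, shares 197 exon bases with Asxl1 and had 30.2% as many counts. It measured 0.807, 9.33 and 0 CPM in SS MAC-1-, beside 1.88, 14.9 and 18.9 in SS MAC-1low HSCs. The edgeR adjusted p of that difference was 0.881, at a log2 fold change of 1.81. As the counting strand is not stated, reads of the pair cannot be told apart in the shared stretch, and the part of 2500004C02Rik in the Asxl1 values was not tested.

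**Figure D2:**
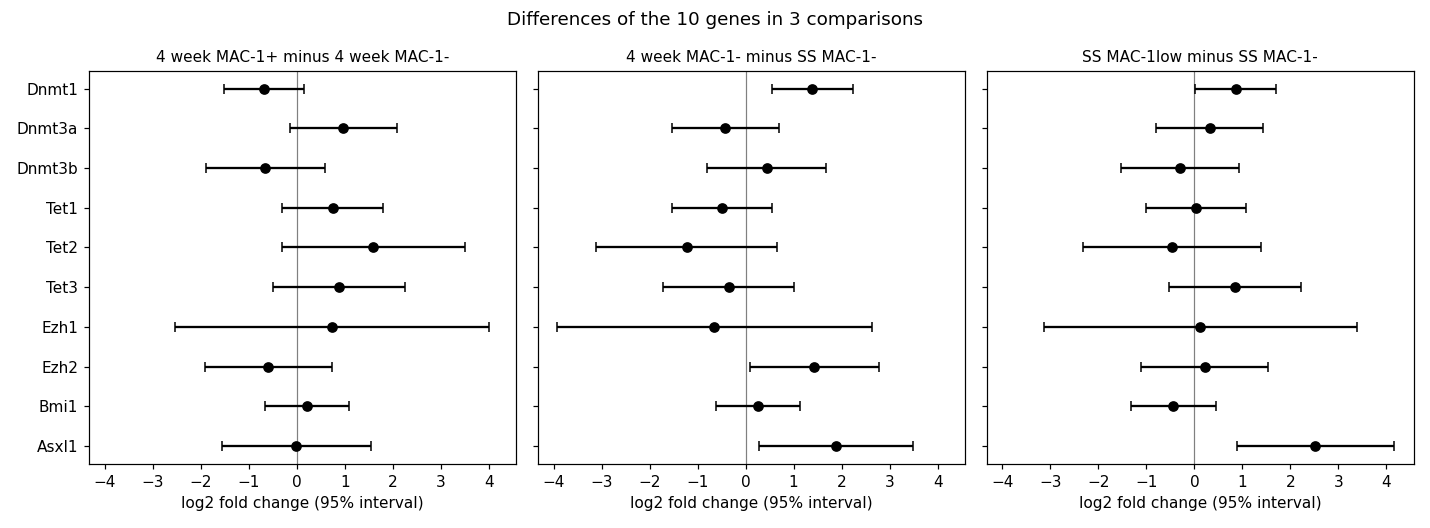
Log2 fold change from edgeR (dots) with a 95% interval worked back from its test (bars) for the 10 genes in 4 week MAC-1+ minus 4 week MAC-1- (left), 4 week MAC-1- minus SS MAC-1- (middle) and SS MAC-1low minus SS MAC-1- HSCs (right), with n = 3 per population. The intervals of Dnmt1, Ezh2 and Asxl1 exclude 0 in the middle panel and those of Dnmt1 and Asxl1 in the right, before correction for the number of genes tested, and none does in the left.

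The summed level of cell cycle genes, like the levels of Dnmt1 and Ezh2, was higher in all 4 week MAC-1- than in all SS MAC-1- samples. The summed level of 28 cell cycle genes was 1803 to 2201 CPM in SS MAC-1-, 2822 to 3871 in SS MAC-1low, 3639 to 4332 in 4 week MAC-1-, 2971 to 3196 in 4 week MAC-1low and 1789 to 2702 in 4 week MAC-1+ HSCs. Of the 28, 17 exceeded their SS MAC-1- level in 4 week MAC-1- HSCs at an unadjusted p below 0.05 by edgeR and 0 passed the adjusted threshold, with a median log2 fold change of 1.11 (-0.03 over all genes). Of all genes, 10.4% were below that p in either direction. In 4 week MAC-1low versus SS MAC-1low HSCs the median of the 28 was -0.13, where Ezh2 had a log2 fold change of 0.95 ± 0.59 (edgeR adjusted p 0.696). Pearson's r with that sum over the 16 samples was 0.66 for Dnmt1, 0.48 for Ezh2 and 0.43 for Asxl1, and -0.39 for Tet2. These are descriptions over samples that share populations. Dnmt1 and Ezh2 also went with fewer genes detected (r = -0.57 and -0.53), and Tet2 with more (0.53). Mki67, a marker of cycling cells, was 1.10 ± 0.42 higher on the log2 scale in 4 week MAC-1- than in SS MAC-1- HSCs (edgeR adjusted p 0.398).

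Uhrf1 had the order of populations of Dnmt1 at its ends. It was 25.2, 19.5 and 24.4 CPM in SS MAC-1- HSCs, 33.6, 60.5 and 50.3 in SS MAC-1low, and 106, 73.6 and 72.3 in 4 week MAC-1- HSCs. It was 102, 28.7, 53.9 and 33.9 CPM in 4 week MAC-1low and 31.3, 25.9 and 55.1 in 4 week MAC-1+ HSCs. The 4 week MAC-1- versus SS MAC-1- log2 fold change was 1.87 ± 0.51 with an edgeR adjusted p of 0.218, and that of 4 week MAC-1+ versus 4 week MAC-1- was -1.16 ± 0.50 (0.319). Hells, a chromatin remodeler needed for DNA methylation, was 0.46 ± 0.41 higher in the first of these (0.783).

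Markers of other cells differed between populations too. The summed level of 10 megakaryocyte genes was 4368 to 6807 CPM in 4 week MAC-1- HSCs, where at most Gp6 was at 0, 635 to 1139 in SS MAC-1-, 348 to 718 in SS MAC-1low, 362 to 876 in 4 week MAC-1low and 160 to 229 in 4 week MAC-1+ HSCs, where Gp1bb was at 0 in all 3 samples. The summed level of 12 neutrophil genes was 257, 1137 and 7743 CPM in 4 week MAC-1+ replicates 1 to 3 and 89.8 to 395 in the other samples, and Elane was at 0 in 2 of the 3 MAC-1+ samples. The values of Dnmt1, Ezh2 and Tet2 in 4 week MAC-1+ replicate 3, the sample highest in neutrophil genes, were 66.7, 35.1 and 65.3 CPM, the first and second of them the lowest of that population. Dnmt3a, Ezh1 and Asxl1 were also lowest in that sample. Dnmt3b (50.9 CPM), Tet1 (78.5) and Tet3 (74.8) were highest there, and Bmi1 lay between the other samples. The part of cell cycle genes, megakaryocyte genes and neutrophil genes in the values of the 10 genes was not tested.

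**Figure D3:**
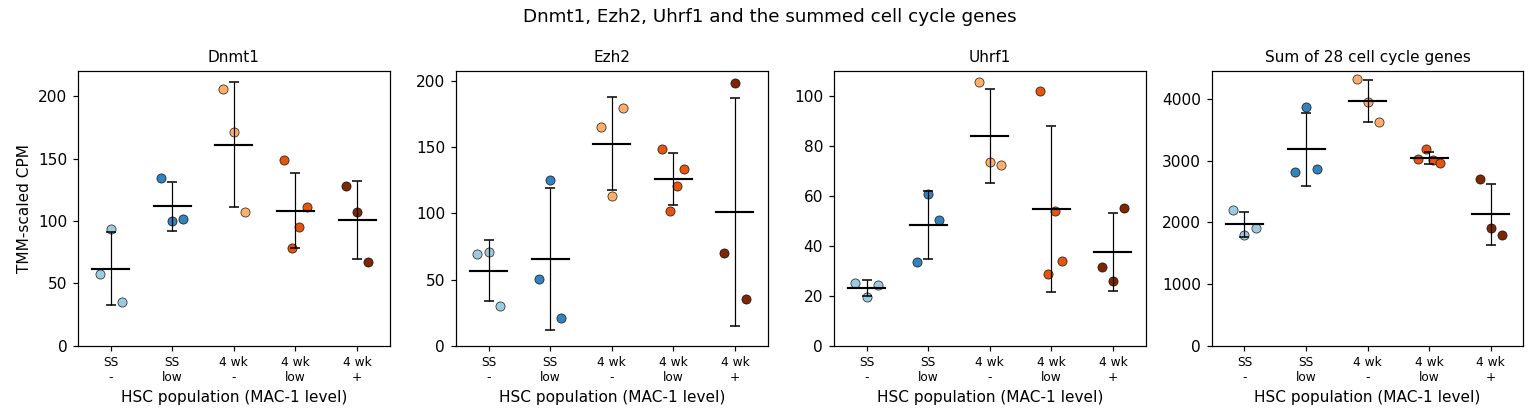
TMM-scaled CPM of Dnmt1, Ezh2 and Uhrf1 and the summed CPM of 28 cell cycle genes in the 16 samples (dots), with the mean (line) and SD (bars) of each population. SS MAC-1- HSCs were at 1803 to 2201 and 4 week MAC-1- HSCs at 3639 to 4332 CPM of the summed genes, and all 4 week MAC-1- samples were above all SS MAC-1- samples for Dnmt1, Ezh2 and Uhrf1 alike.

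The partners of the 10 genes were followed as lists. None of the 9 other PRC2 genes tested and none of the 25 other PRC1 genes passed the edgeR test in any of the 9 tests. In 4 week MAC-1+ versus 4 week MAC-1- HSCs, 4 of the 25 PRC1 genes were higher and 0 lower at an unadjusted p below 0.05, with a median log2 fold change of 0.42 (0.07 over all genes), and 0 of the 9 PRC2 genes were higher and 2 lower, with a median of -0.03. Over all genes, 13.4% were below that p in either direction. Of 21 other genes of DNA methylation, 0 passed in that comparison and 1, Tdg, passed in 4 week MAC-1+ versus SS MAC-1- (2.36% of all genes). Of 12 genes of H2A deubiquitination and H3K27 demethylation 1 passed, Ogt, and of 7 Polycomb target genes 1, Hoxa9, both in 4 week MAC-1+ versus 4 week MAC-1- (3.25% of all genes). Cdkn2a, the classical target of BMI1, had 0 counts in all 16 samples, which allows up to 0.112 to 0.220 CPM, depending on the sample.

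Ogt, which encodes the O-GlcNAc transferase that binds TET proteins and HCFC1, was higher in the MAC-1+ than in the MAC-1- HSCs at 4 weeks. It was 912, 548 and 631 CPM in 4 week MAC-1+, beside 264, 272 and 332 in 4 week MAC-1-, and 303 to 489 in 4 week MAC-1low, 289 to 479 in SS MAC-1- and 240 to 328 in SS MAC-1low HSCs. All 3 MAC-1+ samples were above all 13 others. The log2 fold change versus 4 week MAC-1- was 1.27 ± 0.25 with an edgeR adjusted p of 0.0151, and it stayed between 3.35e-05 and 0.0904 under the alternatives and left-out libraries. Against SS MAC-1- it was 0.94 ± 0.25 (edgeR adjusted p 0.0833), which rose to as much as 0.266 without 4 week MAC-1+ replicate 1 and was above 0.1 without any single library other than SS MAC-1- replicate 3, 4 week MAC-1low replicate 2 or 4 week MAC-1+ replicate 2.

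Hoxa9, a homeobox gene held in check by Polycomb in many tissues, was 236, 319.7 and 206 CPM in 4 week MAC-1+, beside 144, 76.4 and 62.0 in 4 week MAC-1- HSCs, again without overlap. MAC-1+ exceeded MAC-1- HSCs by a log2 fold change of 1.43 ± 0.34 (edgeR adjusted p 0.0418). Leaving out 4 week MAC-1- replicate 2 gave an adjusted p of 0.191, leaving out replicate 3 of that population 0.188, leaving out 4 week MAC-1+ replicate 2 gave 0.145, and it was 0.150 when only the groups compared were fitted. Tdg, the glycosylase that excises oxidized methylcytosine, had 6, 1 and 0 counts in SS MAC-1- replicates 1 to 3 and 78 to 423 counts in the other 13 samples. Its edgeR adjusted p in 4 week MAC-1+ versus SS MAC-1- was 0.0771, and 1.09e-08 to 0.441 over the alternatives, above 0.1 without either SS MAC-1- replicate 2 (0.184) or 4 week MAC-1+ replicate 2 (0.172), among others. Of the 28 cell cycle genes, Tyms (log2 fold change -1.90 ± 0.39, edgeR adjusted p 0.0186) and Mcm3 (-1.36 ± 0.38, 0.0939) fell in 4 week MAC-1+ versus 4 week MAC-1- HSCs. For Tyms the adjusted p stayed between 0.000376 and 0.0919 throughout. For Mcm3 it was above 0.1 in most of the alternatives and left-out libraries. It rose to 0.388 with no filter and to 0.357 without 4 week MAC-1- replicate 3.

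**Figure D4:**
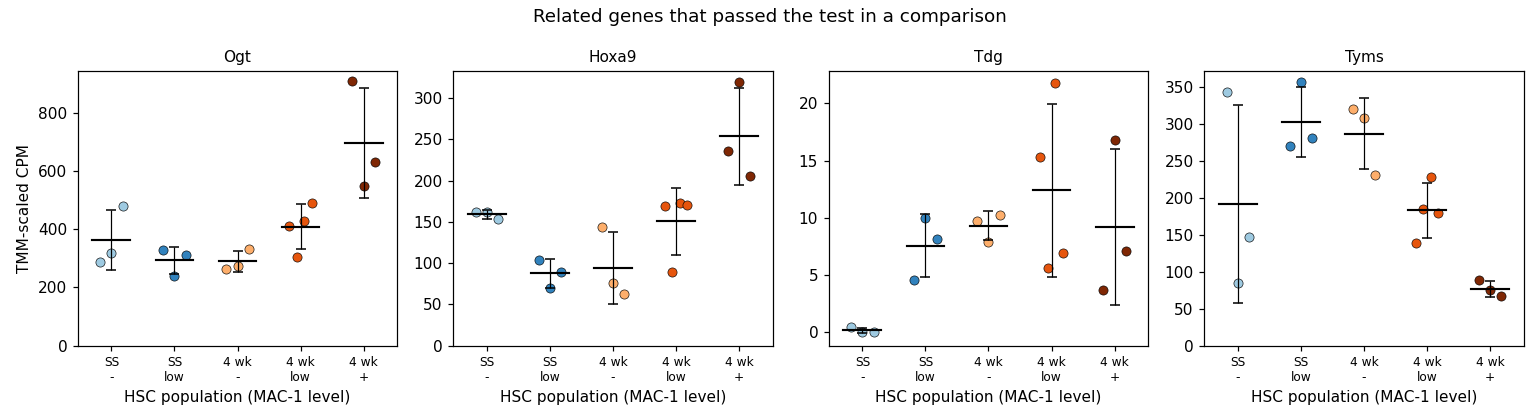
TMM-scaled CPM of Ogt, Hoxa9, Tdg and Tyms in the 16 samples (dots), with the mean (line) and SD (bars) of each population. The 4 week MAC-1+ samples were all above the 4 week MAC-1- samples for Ogt and Hoxa9 and all below them for Tyms, and Tdg was at 0 to 0.440 CPM in SS MAC-1- HSCs.

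For the 3 genes with the smallest p in the joint test, the genes with the most similar log2 CPM over the 16 samples were sought among the 13660 others. Dnmt1 (edgeR joint adjusted p 0.357) was most like Gtpbp1 (Pearson's r 0.83), Gucy1a3 (0.82) and Golga5 (0.81). Asxl1 (0.383) was most like BC030336 (r 0.88), Gm1818 (0.87) and Kctd18 (0.86), and Ezh2 (0.555) most like Pole2 (r 0.84), Fyttd1 (0.83) and Xlr4a (0.81). These are the highest of 13660 correlations each and are given as a description.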

How the data were processed

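The deposited file is 1 table of counts of reads on each gene in 16 SMART-Seq samples, which the authors left unnormalized. Reads went through the nf-core RNA-seq pipeline with STAR. How reads were counted (program, strand, genome build, annotation) is not given in the sources used here. No molecular identifiers are added in SMART-Seq, so PCR duplicates remain in the counts and long transcripts yield more reads. Columns were matched to samples by their labels. The protocol text of every sample describes transplantation, and the SS samples were taken as untreated from their titles and treatment label.

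The analysis used edgeR 4.0.16 in R 4.3.3 (TMM factors, default filter on low counts, robust quasi-likelihood test) with 1 model holding a mean for each of the 5 populations. Limma 3.58.1 and DESeq2 1.42.0 were alternatives, and the tests were first run on simulated data. Adjusted p are Benjamini-Hochberg values over all 13661 genes tested, with a threshold of 0.1. CPM are TMM-scaled, log2 CPM used a prior count of 2, and the floor of 3 counts for a count of 0 covers counting error only. Positions and exon lengths are from GENCODE M21, in which 98% of the 46078 identifiers, with 99.93% of the counts, were found. RefSeq gave the promoters.

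The 10 genes, the lists of related genes and the tests were chosen with earlier results of these data known. Named beside the 10 are related genes past the threshold, at most 5 per list and comparison, Uhrf1, Hells, Mki67, Cdkn2a, Itgam, genes overlapping one of the 10, and the 3 genes most like each of 3 of them. Single markers at 0, and the replicates singled out, were named after their values were seen. The alternatives were another test, other size factors, no filter or a mean of at least 50 counts, a covariate for detected genes, a replicate block, only the groups compared, a threshold of 0.05, CPM without TMM factors and leaving out each sample.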

Additional observations from a re-analysis of the deposited data

How the results depend on the processing

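The count of 0 of the 10 genes past the threshold held in all 9 tests under limma-voom, DESeq2's size factors in edgeR, both other filters, detected genes as a covariate and each left-out library (range 0 to 0). It also held with the groups compared alone, which was run on 7 tests, not on the joint test or the interaction. A threshold of 0.05 on the main p-values could give only 0 as well, as none of the 10 passed at 0.1. The exception was DESeq2, which called 1 gene in each of SS MAC-1low versus SS MAC-1-, 4 week MAC-1- versus SS MAC-1- and 4 week MAC-1+ versus SS MAC-1-. The cause was not tested. All 50 mean levels stayed within 1 SD without TMM factors, which ran from 0.907 to 1.10 and so could move them little. Of 25 log2 fold changes recomputed, 23 kept their sign in every setting. The other 2 were in 4 week MAC-1+ versus 4 week MAC-1-. For Asxl1, at -0.016, the sign turned with DESeq2 (0.056), limma-voom (0.44), DESeq2's size factors (0.054), no filter (0.037), detected genes as a covariate (0.64) and the groups compared alone (0.012), and it ran from -0.52 to 0.40 over left-out libraries. For Ezh1, at 0.73, it ran from -1.42 to 2.75 over left-out libraries. With the replicate block, 0 of the 10 genes passed in any test. Same-numbered samples of different populations deviated together weakly, with a median r of 0.010 (-0.0011 to 0.040) over 12 pairs. Differently numbered ones had a median r of -0.0075 (-0.026 to 0.023) over 30 pairs. Of 15 samples, 11 correlated best with their own number. Whether same-numbered samples share an origin is not given in the labels. The main model did not pair them, and the replicate block used the numbers of the sample titles. The smallest count behind a value of the 10 genes was 9 reads, for Ezh1 in SS MAC-1- replicate 3.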
